A study of Mus musculus with 18 samples.

Results

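Described here are 9 mouse genes of retinoid metabolism and retinoic acid signalling, chosen by name: the retinal reductase gene Dhrs3, the retinal dehydrogenase genes Aldh1a1, Aldh1a2 and Aldh1a3, the binding protein gene Crabp2, the receptor genes Rara, Rarb and Rarg, and the retinoic acid hydroxylase gene Cyp26b1. They are 9 of the 55487 genes in the count files. The choice was made with earlier results of these data known, so counts of these genes called beside the share of all genes are descriptive. Of these 9, 7 had enough counts to be tested, and each of the 7 held at least 12 counts in every library. Aldh1a2 and Aldh1a3 did not.

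The 18 libraries come from T23 cells, a mouse prostate tumour line, in 6 groups of 3. T23 cells were kept alone, co-cultured with wild-type fibroblasts, co-cultured with fibroblasts that lack Sparc (a gene for a secreted matrix glycoprotein), treated with enzalutamide (an androgen receptor antagonist), co-cultured with fibroblasts under enzalutamide, or co-cultured with fibroblasts under enzalutamide and isoliquiritigenin (ISO in the labels, a plant chalcone). No other allele or agent is named for any group, and doses, times, the origin of the fibroblast lines and the number of clones are not given in the sources used here. Both enzalutamide co-cultures are described as holding human fibroblasts, but FIBROB6, the name in their titles, is also that of the untreated wild-type co-culture. Comparisons of these co-cultures with the untreated one therefore assume the same fibroblasts. The labels do not say whether the 3 replicates of a group are separate cultures, so p-values measure the spread between these libraries, which may be technical. They also do not say whether RNA of the fibroblasts is in the libraries, and in such bulk RNA fewer cells of a type and less RNA per cell cannot be told apart.

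Cells take up retinol, oxidise it to retinal and oxidise retinal to retinoic acid. DHRS3 runs the first step backwards, from retinal to retinol, and the ALDH1A enzymes carry out the step to retinoic acid. CRABP2 hands retinoic acid to its nuclear receptors, RAR alpha, beta and gamma, which bind DNA as partners of RXR, and CYP26 enzymes hydroxylate retinoic acid and so clear it. Rarb, Dhrs3, Crabp2 and Cyp26 genes are textbook examples of genes that retinoic acid itself induces. In prostate epithelium, retinoid signalling is known for its part in differentiation, and RARB is often silenced in human prostate tumours.

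Library totals ranged from 16.1 to 26.7 M counts. In replicate 2 of enzalutamide alone, 26.4% of the counts fell on 1 ribosomal RNA gene, against at most 0.138% in any other library. Genes of the mitochondrial genome took 0.824 to 1.68% of the counts in the 3 groups without enzalutamide and 1.55 to 4.06% in the 3 groups with it. Of 7 luminal epithelial markers only Krt19 reached 1 CPM (counts per M, scaled between libraries) in any group, and the defining genes Epcam, Krt8, Krt18 and Cdh1 stayed under 1 CPM in all 18 libraries. None of 5 neuroendocrine markers reached that mean in any group, nor did more than 1 of 3 basal and of 5 leukocyte markers or 2 of 4 endothelial ones. Of 10 fibroblast markers, 8 reached 1 CPM in the group of T23 cells alone, and this list cannot tell fibroblast RNA from T23 RNA. Its summed level was 17199 to 17745 CPM in T23 cells alone, 16677 to 17921 with wild-type and 19108 to 19751 with Sparc-deficient fibroblasts, 14535 to 16005 with enzalutamide, 15558 to 16248 in the enzalutamide co-culture and 13026 to 13211 with isoliquiritigenin. The sum mainly follows the collagen genes Col1a1 (6837 to 12218 CPM over all libraries) and Col3a1 (4044 to 5726). Pdgfra came next, at no more than 1410 CPM. Sparc stood between 2586 and 3208 CPM in all libraries, which does not check its loss in the fibroblasts, since T23 cells carry the gene.

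Per kilobase of exon, Rarg was the most abundant of the 9 in T23 cells alone, at 26.6 CPM per kb ± 0.653 (SD, n = 3), followed by Rara at 10.6 ± 0.375. Crabp2 (2.69 ± 0.459), Aldh1a1 (2.61 ± 0.0595), Dhrs3 (2.51 ± 0.191) and Cyp26b1 (1.87 ± 0.0794 CPM per kb) lay close together. Rarb, at 0.147 CPM per kb ± 0.0339, was the lowest of the tested genes. Receptor transcripts were therefore mostly those of RAR gamma and RAR alpha.

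The promoters of Rarb, Dhrs3 and Cyp26b1 are shown because these 3 genes were called higher with wild-type fibroblasts (below) and are known retinoic acid targets. Crabp2, also a known target, was not called there (log2 -0.35, edgeR adjusted p 0.528). Retinoic acid receptors bind paired copies of a hexamer, classically as direct repeats spaced by 1, 2 or 5 bases. A hexamer was taken as AGGTCA or else AGTTCA or else GGGTCA or else GGTTCA, on either strand, in windows from 250 bases before to 50 bases after each gene start (RefSeq, GRCm38.p6), with both copies of a repeat on 1 strand. Windows were given for 7 of the 9 genes, 14 in all, and not for Aldh1a3 and Crabp2. In the sequences, read 5′ to 3′ on the strand of the gene, capitals mark the hexamers. The windows are chr14:16575427-16575726 (minus strand) for Rarb, chr4:144892577-144892876 (plus strand) for Dhrs3 and chr6:84593761-84594060 (minus strand) for Cyp26b1.

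Rarb: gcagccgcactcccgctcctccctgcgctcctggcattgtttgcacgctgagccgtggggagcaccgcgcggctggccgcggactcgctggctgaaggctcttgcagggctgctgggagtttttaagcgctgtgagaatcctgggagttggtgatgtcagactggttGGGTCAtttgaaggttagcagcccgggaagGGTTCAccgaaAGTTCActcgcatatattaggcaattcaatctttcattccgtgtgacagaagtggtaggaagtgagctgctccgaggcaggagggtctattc

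Dhrs3: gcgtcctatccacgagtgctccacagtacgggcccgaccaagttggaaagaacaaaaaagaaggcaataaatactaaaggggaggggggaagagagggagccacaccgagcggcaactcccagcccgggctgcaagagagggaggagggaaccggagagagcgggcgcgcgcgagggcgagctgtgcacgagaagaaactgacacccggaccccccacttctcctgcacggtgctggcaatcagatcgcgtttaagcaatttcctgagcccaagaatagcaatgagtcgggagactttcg

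Cyp26b1: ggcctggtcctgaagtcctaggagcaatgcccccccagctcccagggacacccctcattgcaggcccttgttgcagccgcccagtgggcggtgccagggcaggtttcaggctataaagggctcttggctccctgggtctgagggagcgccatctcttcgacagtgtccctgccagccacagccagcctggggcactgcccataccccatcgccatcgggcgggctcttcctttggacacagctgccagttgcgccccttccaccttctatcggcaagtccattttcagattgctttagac

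The Rarb window, at a start (16575476) that lies inside the annotated gene, holds 3 hexamers. The last pair forms a direct repeat with 5 bases between the copies, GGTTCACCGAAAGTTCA, from 53 to 37 bases before the start (-53 to -37). Such a repeat is in 32 of 32851 mouse promoter windows of this length (0.0974%), and no other of the 14 windows has one. Single hexamers are common, with at least 1 in 43.7% of all windows, and the windows printed for Dhrs3 and Cyp26b1 have none. At least 1 window each of Rara, Rarg and Aldh1a1 holds hexamers, and these genes were not called with wild-type fibroblasts. Repeats with 1 or 2 bases between the copies, in 0.222 and 0.268% of all windows, are in none of the 14. A match in letters is not a binding site, and absence from these windows says nothing of sites elsewhere.

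Dhrs3 (ENSMUSG00000066026, chromosome 4, 144892827 to 144928209, plus strand) was lowest in T23 cells alone, at 7.91, 6.79 and 7.31 CPM in replicates 1, 2 and 3. Next to wild-type fibroblasts it stood at 10.5, 12.5 and 13.0 CPM, and next to Sparc-deficient ones at 17.7, 19.8 and 17.1. Every co-culture library lay above every library of T23 cells alone, and the Sparc-deficient group above the wild-type one. With enzalutamide alone the values were 18.4, 18.6 and 15.0 CPM, in the enzalutamide co-culture 21.1, 23.7 and 23.9, and with isoliquiritigenin 20.3, 20.8 and 20.8. The group means spanned 3.12-fold, and of neighbouring groups in their order only enzalutamide alone and the Sparc-deficient co-culture overlapped.

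Aldh1a1 (ENSMUSG00000053279, chromosome 19, 20492715 to 20643465, plus strand) was the only measurable gene of the 3 retinal dehydrogenases. Its levels were 12.9, 12.6 and 13.2 CPM in T23 cells alone, 11.0, 9.62 and 12.2 with wild-type fibroblasts, and 17.0, 16.6 and 17.4 in the Sparc-deficient co-culture. Under enzalutamide it was lower in every library, at 5.66, 5.26 and 5.43 CPM without fibroblasts, 7.71, 7.95 and 6.79 with fibroblasts, and 4.66, 5.52 and 4.68 with isoliquiritigenin added. The group means spanned 3.43-fold, the widest span of the 7 tested genes, and all 9 libraries with enzalutamide lay below all 9 without it. In the order of the means only the isoliquiritigenin group and enzalutamide alone overlapped.

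Aldh1a2 (ENSMUSG00000013584, chromosome 9, 71215789 to 71296243, plus strand) had 0 counts in all 18 libraries, which allows a level of up to 0.112 to 0.186 CPM depending on the library (3 counts). Aldh1a3 (ENSMUSG00000015134, chromosome 7, 66390890 to 66427517, minus strand) had 15 counts in all, between 0 and 4 per library, with 10 libraries at 0. No difference of these 2 genes between groups was detectable at this depth.

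Crabp2 (ENSMUSG00000004885, chromosome 3, 87948666 to 87953376, plus strand) varied little, with group means from 2.78 to 4.38 CPM, a 1.58-fold span. It was at 3.74, 2.88 and 4.05 CPM in T23 cells alone, 2.24, 3.1 and 3.64 in the enzalutamide co-culture and 4.3, 4.92 and 3.92 with isoliquiritigenin. The last 2 groups did not overlap, whereas every pair of neighbours in the order of the means did.

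Rarb (ENSMUSG00000017491, chromosome 14, 16430839 to 16819156, minus strand) was at 0.86, 0.566 and 0.889 CPM in T23 cells alone, which is 20, 12 and 18 counts. With wild-type fibroblasts it was at 1.93, 1.81 and 1.92 CPM (37, 46 and 38 counts), with Sparc-deficient fibroblasts at 1.09, 2.02 and 1.84, and with enzalutamide alone at 1.78, 1.45 and 1.56. The enzalutamide co-culture gave 1.64, 3.05 and 2.86 CPM and the isoliquiritigenin group 2.44, 2.35 and 2.02. T23 cells alone lay below all 15 other libraries, while among those groups the only neighbours without overlap were the wild-type co-culture and the isoliquiritigenin group. These counts are uncertain: Rarb overlaps Top2b on the opposite strand over 1793 exon bases, Top2b has a mean of 4260 counts per library, and the strand setting of the counting is not given in the sources used here. Top2b itself was not called in any comparison, with log2 fold changes from -0.15 to 0.19.

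Rara (ENSMUSG00000037992, chromosome 11, 98927818 to 98974942, plus strand) and Rarg (ENSMUSG00000001288, chromosome 15, 102234938 to 102257517, minus strand) were the steadiest of the group, with spans of 1.19-fold and 1.23-fold between the highest and the lowest group mean. Rara ranged from 39.0 to 52.0 CPM over the 18 libraries, and all neighbouring groups overlapped. Rarg ranged from 107 to 143 CPM. Its Sparc-deficient libraries (141, 143 and 134 CPM) stood above those of T23 cells alone (112, 112 and 116) and with wild-type fibroblasts (123, 126 and 116).

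Cyp26b1 (ENSMUSG00000063415, chromosome 6, 84571414 to 84593908, minus strand) was lowest in T23 cells alone, at 10.1, 9.57 and 10.4 CPM. It was at 17.2, 14.3 and 14.2 CPM with wild-type fibroblasts, 12.9, 11.8 and 13.8 in the Sparc-deficient co-culture and 11.9, 13.1 and 11.7 with enzalutamide alone. The enzalutamide co-culture was highest, at 19.9, 22.6 and 19.6 CPM, above all other libraries, and the isoliquiritigenin group had 13.9, 16.6 and 17.2. The means spanned 2.06-fold. The other members of this enzyme family, Cyp26a1 and Cyp26c1, were at most 0.26 and 0.436 CPM in any library, so Cyp26b1 was the only one with enough counts to test.

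**Figure D1:**
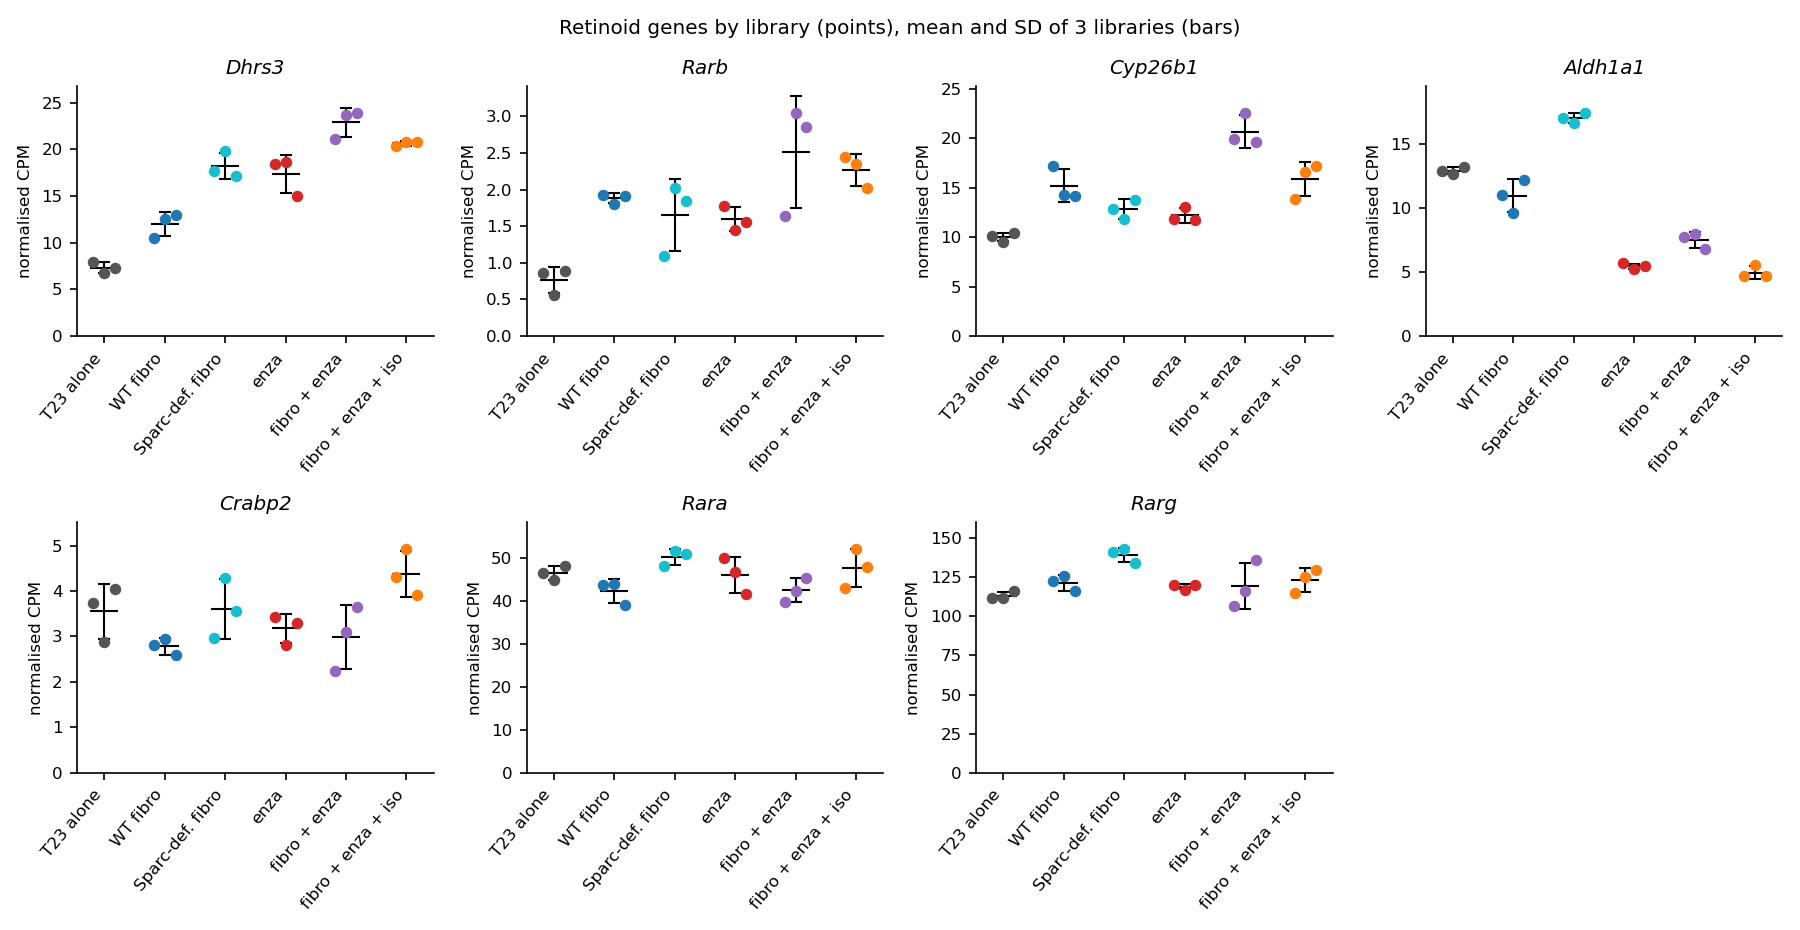
Normalised CPM (y axis, from 0) of the 7 tested retinoid genes in each of the 18 libraries (points), with the mean and SD of 3 libraries (bars), by group (x axis; WT fibro is wild-type fibroblasts, Sparc-def. fibro Sparc-deficient fibroblasts, enza enzalutamide, iso isoliquiritigenin). Dhrs3, Rarb and Cyp26b1 are lowest in T23 cells alone, as is the group mean of Rarg. Aldh1a1 is lower in all 9 libraries with enzalutamide, and the group means of Rara and Rarg stay within 1.23-fold.

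Wild-type fibroblasts, against T23 cells alone, raised Dhrs3, Cyp26b1 and Rarb. Dhrs3 rose 1.64-fold, with 12 CPM ± 1.32 against 7.33 ± 0.559 (SD, n = 3; log2 0.71 with an SE of 0.11, as after ± in later log2 values; edgeR adjusted p 0.00304). Cyp26b1 rose 1.52-fold (log2 0.60 ± 0.10, adjusted p 0.00588) and Rarb 2.43-fold (1.28 ± 0.28, adjusted p 0.0339). So 3 of 7 tested genes were called (adjusted p under 0.05) and all 3 were higher, where 0.515% of all genes tested were called, 0.257% higher and 0.257% lower. The median log2 change was 0.10 over the 7 genes and 0 over all genes. Aldh1a1 was at log2 -0.24 ± 0.09 (adjusted p 0.342), and Crabp2 (-0.35), Rara (-0.14) and Rarg (0.10) did not pass either.

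Of 42 further genes of retinoid uptake, storage, metabolism and receptor partnership listed for this purpose, 27 could be tested, and edgeR called none of them in this comparison (2 at an unadjusted p under 0.05, none by DESeq2). Of 18 listed retinoic acid targets, 13 could be tested and none was called (1 at an unadjusted p under 0.05, none by DESeq2). The receptor partner genes Rxra (log2 -0.02) and Rxrb (-0.07) and the retinol receptor gene Stra6 (0.13) were among those not called. Rarb was not called with any 1 of the 6 libraries left out (adjusted p 0.0977 to 0.156) or with a replicate block (0.0506), nor when the fit held the first numbering series of the sample titles alone (0.0518), while its log2 change stayed at 1.10 to 1.38, 1.27 and 1.28. Cyp26b1 was not called without wild-type replicate 1 (log2 0.50, adjusted p 0.0598). Summed fibroblast markers of both groups overlapped, and their part in these changes was not tested.

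Dhrs3, Aldh1a1 and Rara were higher with Sparc-deficient than with wild-type fibroblasts. Aldh1a1 was 1.56-fold higher, from 11.0 CPM ± 1.31 to 17.0 ± 0.352 (SD, n = 3; log2 0.64 ± 0.09, edgeR adjusted p 3.87e-05), Dhrs3 1.51-fold (0.59 ± 0.10, adjusted p 0.000185) and Rara 1.19-fold (0.25 ± 0.08, adjusted p 0.0349). These 3 of 7 genes, all higher, stand beside 11.5% of all genes called, 6.72% higher and 4.79% lower. Rarg, at log2 0.20 and an adjusted p of 0.0502, lay at the threshold and passed it in 8 alternative settings (0.0131 to 0.0482). Cyp26b1 (-0.24, adjusted p 0.122), Rarb (-0.19, 0.691) and Crabp2 (0.36, 0.221) did not pass. The median over the 7 genes was 0.25, against -0.005 over all genes.

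Other retinoid genes changed in both directions, with 6 of 27 higher and 3 lower and a median of 0.14. Rdh10, the main retinol dehydrogenase of embryonic retinoic acid synthesis, rose from 58.1 CPM ± 2.89 to 70.7 ± 0.819 (log2 0.29, adjusted p 0.00124). The alcohol dehydrogenase genes Adh7 (log2 -0.45, adjusted p 0.000132) and Adh1 (-0.65, 0.00286), whose products can oxidise retinol, fell. Of the 13 targets, 3 rose and none fell: the transglutaminase gene Tgm2 (log2 0.37, adjusted p 3.22e-05), the transcriptional repressor gene Bhlhe40 (0.53, 0.000492) and the chemerin gene Rarres2 (1.49 ± 0.41, 0.0203). Counts of Rarres2 were low, at 13, 14 and 5 with wild-type and 26, 40 and 25 with Sparc-deficient fibroblasts. Fibroblast markers summed higher in all 3 Sparc-deficient libraries than in all wild-type ones, and their part in these changes was not tested. Rara was no longer called when wild-type replicate 1, 2 or 3 was left out (adjusted p 0.0599, 0.0557 and 0.138) or Sparc-deficient replicates 2 and 3 (0.129 and 0.0949), and that of Rarres2 without wild-type replicates 2 or 3 or Sparc-deficient replicate 2 (lowest adjusted p 0.0656).

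Against T23 cells alone, the Sparc-deficient co-culture had 5 of the 7 genes higher and none lower. Dhrs3 rose 2.47-fold (log2 1.31 ± 0.10, edgeR adjusted p 8.02e-09), Rarb 2.12-fold (1.09 ± 0.29, 0.016), Aldh1a1 1.32-fold (0.40 ± 0.09, 0.0048), Cyp26b1 1.28-fold (0.36 ± 0.10, 0.0291) and Rarg 1.23-fold (0.30 ± 0.06, 0.0035). Of all genes, 9.74% were called, 6.1% higher and 3.65% lower, and the medians were 0.36 and -0.006. This comparison shares its libraries with both before it. Rara (log2 0.11, adjusted p 0.413) and Crabp2 (0.01, 0.977) did not pass.

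Of the 27 other pathway genes 5 rose and 2 fell, among them Rbp4, which encodes the retinol carrier of blood plasma, from 1.08 CPM ± 0.125 to 2.25 ± 0.301 (log2 1.05 ± 0.24, adjusted p 0.00474), Rdh10 (0.32, 0.000425) and Adh7 (-0.51, 3.22e-05). Of the targets 3 rose, Tgm2 (0.43, adjusted p 6.15e-06), Rarres2 (1.69, 0.0118) and Bhlhe40 (0.35, 0.0174), and 1 fell. Rarres2 held only 12, 4 and 12 counts in T23 cells alone. Rarb was not called once replicate 2 of T23 cells alone (adjusted p 0.0988), or replicate 2 (0.093) or 3 (0.0737) of the Sparc-deficient group, was left out, and Cyp26b1 without T23 alone replicates 1, 2 or 3 (0.0827, 0.119 and 0.0545) or Sparc-deficient replicates 1 or 3 (0.0749 and 0.137). Rarres2 and Bhlhe40 each lost theirs without T23 alone replicate 2 and without Sparc-deficient replicate 2, and Bhlhe40 also without T23 alone replicate 1, with adjusted p of at least 0.0695 where lost. Summed fibroblast markers were higher in all 3 Sparc-deficient libraries than in T23 cells alone (19108 to 19751 against 17199 to 17745 CPM), and their part was not tested.

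**Figure D2:**
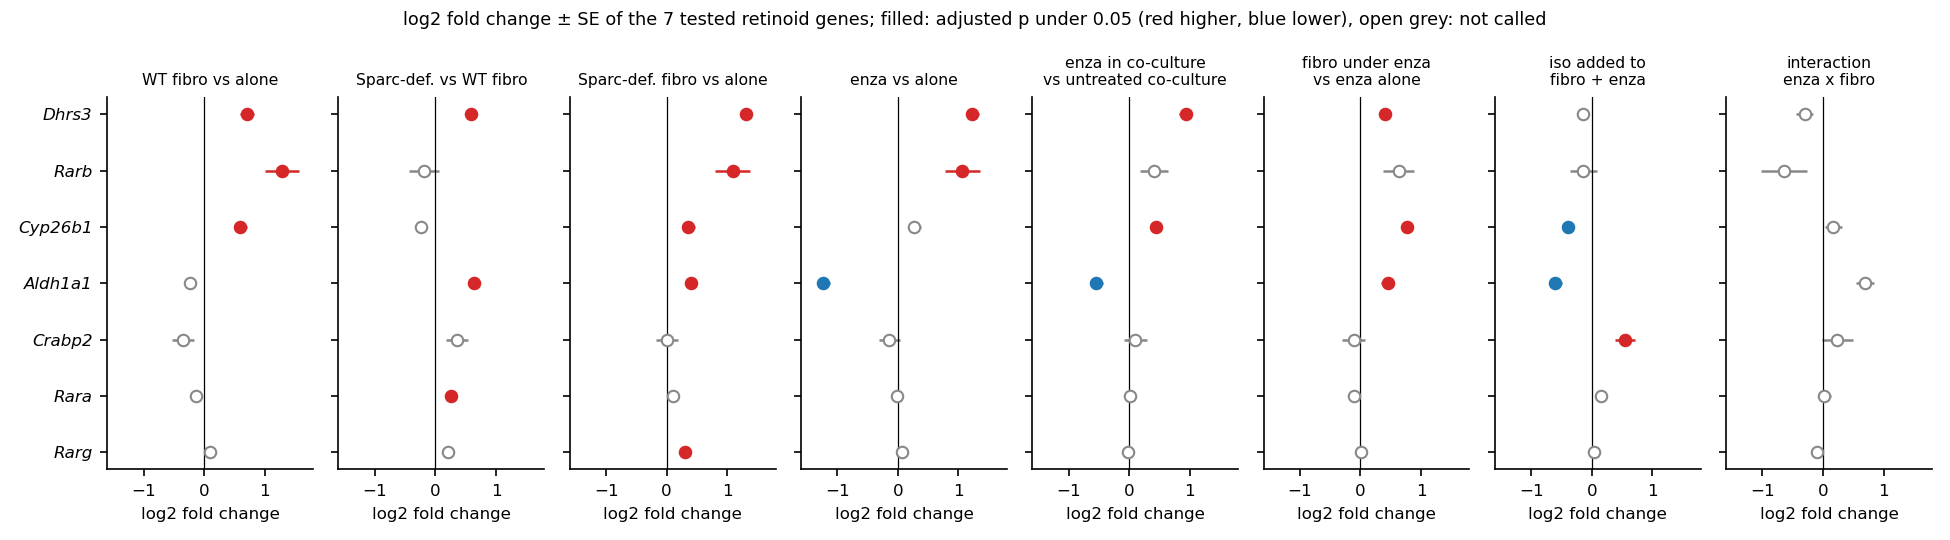
Log2 fold change (x axis; points) ± SE (lines) of the 7 tested retinoid genes (rows) in the 7 comparisons of groups and the interaction (panels; abbreviations as in the plot of levels). Red points were called higher and blue points lower at an adjusted p under 0.05; open grey points were not called. Dhrs3 is red in 6 panels, Rarb in the 3 panels that use T23 cells alone as reference, and Aldh1a1 is blue in 3.

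Enzalutamide without fibroblasts raised Dhrs3 and Rarb and lowered Aldh1a1. Dhrs3 rose 2.34-fold, from 7.33 CPM ± 0.559 to 17.3 ± 2.02 (SD, n = 3; log2 1.23 ± 0.11, edgeR adjusted p 3.54e-08), and Aldh1a1 fell 2.35-fold, from 12.9 CPM ± 0.294 to 5.45 ± 0.2 (log2 -1.23 ± 0.11, 3.54e-08). Rarb was 2.09-fold higher (1.06 ± 0.29, adjusted p 0.0194). The 2 genes higher and 1 lower of 7 stand beside 12% of all genes called, 6.84% higher and 5.19% lower, and the medians were 0.07 and 0. Cyp26b1 was at log2 0.27 (adjusted p 0.0989), and Rara (-0.01), Rarg (0.07) and Crabp2 (-0.14) did not pass.

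Stra6, the gene of the membrane receptor that takes up retinol from its plasma carrier, had the largest change of the retinoid lists. It was at 5.54, 6.74 and 5.82 CPM in T23 cells alone and at 0.802, 1.45 and 1.16 with enzalutamide, with no overlap. This was a 5.56-fold fall (log2 -2.48 ± 0.24, adjusted p 2.01e-07). It was the only one of the 27 pathway genes that fell, and 3 rose: the coactivator gene Ncoa3 (log2 0.28, adjusted p 0.00328), the corepressor gene Ncor1 (0.28, 0.00485) and Fabp5, which encodes a fatty acid binding protein that also carries retinoic acid (0.24, 0.0496). Of the 13 targets 3 rose and none fell, among them Tgm2 (0.23, adjusted p 0.00576) and the homeobox gene Meis2 (0.21, 0.0497). The mitochondrial share was above that of T23 cells alone in all 3 enzalutamide libraries (1.88 to 4.06% against 0.824 to 1.11%). Summed fibroblast markers were lower in all 3 (14535 to 16005 against 17199 to 17745 CPM). The part of either in these changes was not tested. Rarb lost its call without T23 alone replicate 2 (adjusted p 0.0974) or enzalutamide replicate 1 (0.0732). Without enzalutamide replicate 2, the library with 26.4% of its counts on a ribosomal RNA gene, Meis2 went to log2 0.10 (adjusted p 0.319) and Fabp5 to 0.16 (0.195). Fabp5 and Meis2 lost their calls in 9 of 14 alternatives each, among them without any 1 of the T23 alone libraries (Fabp5 also without enzalutamide replicate 3), with a replicate block (0.0608 and 0.0514) and when the fit held no other groups, as did Ncor1 (0.0628) and Tgm2 (0.0538) in that last setting.

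In co-culture with fibroblasts, enzalutamide raised Dhrs3 1.9-fold, from 12 CPM ± 1.32 to 22.9 ± 1.61 (SD, n = 3; log2 0.93 ± 0.10, edgeR adjusted p 1.07e-06). Cyp26b1 rose 1.36-fold (0.45 ± 0.10, adjusted p 0.00408) and Aldh1a1 fell 1.46-fold (-0.54 ± 0.10, adjusted p 0.00113). Of all genes 7.18% were called, 3.7% higher and 3.49% lower, against 2 higher and 1 lower of the 7, with medians of 0.002 and 0.10. Rarb (log2 0.41 ± 0.23, adjusted p 0.334), Crabp2 (0.10), Rara (0.01) and Rarg (-0.02) did not pass. Stra6 fell from 6.68 CPM ± 1.2 to 2.06 ± 0.194 (log2 -1.68 ± 0.20, adjusted p 1.19e-05). Rbp4 fell from a low 1.23 CPM ± 0.187 to 0.514 ± 0.164 (log2 -1.24, adjusted p 0.00938), while the coactivator gene Ncoa1 rose (0.28, 0.0271), which makes 1 higher and 2 lower of 27. Of the 13 targets edgeR called 1 higher and none lower, and DESeq2 called 1 higher and 1 lower. The mitochondrial share was higher in all 3 libraries with enzalutamide (1.55 to 2.71% against 0.853 to 1.34%) and summed fibroblast markers were lower in all 3 (15558 to 16248 against 16677 to 17921 CPM), and their part in these changes was not tested. Replicates 2 and 3 of the enzalutamide co-culture belong to a second numbering series of the sample titles. With that series as a covariate, or with libraries of the first series only, the enzalutamide co-culture rests on replicate 1 alone, which is assumed to vary like the other groups. Of the 3 calls that of Dhrs3 then remained, while Aldh1a1 had a log2 change of -0.50 (adjusted p 0.0925 and 0.0899) and Cyp26b1 of 0.39 (0.167 and 0.145). Ncoa1 (log2 0.24) and Rbp4 (-1.24 and -1.25) were not called there either. Rbp4 also lost its call without replicate 2 of the enzalutamide co-culture, and Ncoa1 without any 1 of replicates 2 and 3 of both groups (lowest adjusted p 0.068 and 0.0844).

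With enzalutamide present in both groups, fibroblasts raised Cyp26b1 1.71-fold, from 12.2 CPM ± 0.731 to 20.7 ± 1.64 (SD, n = 3; log2 0.77 ± 0.10, edgeR adjusted p 0.000241). Dhrs3 rose 1.33-fold (0.41 ± 0.09, adjusted p 0.0181) and Aldh1a1 1.37-fold (0.45 ± 0.11, adjusted p 0.035). All 3 calls of the 7 genes were higher, where 2.08% of all genes were called, 1.14% higher and 0.941% lower, with medians of 0.41 and -0.003. Rarb was at log2 0.63 (adjusted p 0.221) and Crabp2 (-0.11), Rara (-0.11) and Rarg (0.01) did not pass. Of the 27 other pathway genes none was called by edgeR (4 at an unadjusted p under 0.05, 1 higher by DESeq2), with Stra6 at log2 0.93 and an adjusted p of 0.0877. Of the targets edgeR called 1, Bhlhe40, lower at log2 -0.36 (adjusted p 0.0456), and DESeq2 called 2 lower. Cyp26b1 kept its call in all 14 alternatives. Dhrs3 and Aldh1a1 did not. With the numbering series as a covariate or the first series only, where replicate 1 alone stands for the co-culture, Dhrs3 was at log2 0.29 (adjusted p 0.472 and 0.523) and Aldh1a1 at 0.49 (0.268 and 0.276). Both also lost their calls when the fit held no other groups (0.14 and 0.228) and without replicate 3 of enzalutamide alone (0.0874 and 0.0755) or replicate 2 of the co-culture (0.111 and 0.176). Dhrs3 also lost it without co-culture replicate 3 (0.0719), Aldh1a1 without enzalutamide replicates 1 (0.0957) or 2 (0.0658), co-culture replicate 1 (0.0935) and with a replicate block (0.0554), and Bhlhe40 in 7 of 14 alternatives, among them without replicates 1 or 2 of either group (lowest adjusted p 0.0672).

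The interaction asks whether fibroblasts and enzalutamide together change a gene by other than the sum of their separate log2 effects. None of the 7 genes was called by edgeR (2 at an unadjusted p under 0.05) or by DESeq2, where 0.0221% of all genes were called by edgeR, 0.0147% higher and 0.00735% lower. Aldh1a1 came nearest. It was lower in all 3 libraries with wild-type fibroblasts than in T23 cells alone, and higher in all 3 with fibroblasts than without them under enzalutamide, a difference of log2 0.69 ± 0.15 (p 9.32e-05, edgeR adjusted p 0.161). It passed in 1 alternative, without a filter on low counts (adjusted p 0.0255). Dhrs3 was at log2 -0.30 ± 0.14 (adjusted p 0.894) and Rarb at -0.65 ± 0.38 (0.926). Cyp26b1 (0.17), Crabp2 (0.24), Rara (0.02) and Rarg (-0.10) did not pass either. None of the 27 other pathway genes (4 at an unadjusted p under 0.05) or of the 13 targets (none at an unadjusted p under 0.05) was called by edgeR or by DESeq2.

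Isoliquiritigenin, added to the enzalutamide co-culture, lowered Aldh1a1 and Cyp26b1 and raised Crabp2. Aldh1a1 fell 1.52-fold, from 7.48 CPM ± 0.613 to 4.95 ± 0.49 (SD, n = 3; log2 -0.60 ± 0.11, edgeR adjusted p 2e-04), and Cyp26b1 1.31-fold, from 20.7 ± 1.64 to 15.9 ± 1.74 (-0.39 ± 0.09, 0.00322). Crabp2 was 1.46-fold higher, at 4.38 CPM ± 0.505 against 2.99 ± 0.703 (0.55 ± 0.17, adjusted p 0.0215). The 1 gene higher and 2 lower of 7 stand beside 26.5% of all genes called, 12.9% higher and 13.6% lower, and the medians were -0.14 and 0. Dhrs3 (log2 -0.15, adjusted p 0.231), Rarb (-0.14, 0.689), Rara (0.16, 0.124) and Rarg (0.04, 0.675) did not pass.

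The 27 other pathway genes had 7 higher and 4 lower. Adh1 was at 18.7 CPM ± 2.04 against 10.4 ± 1.59 (log2 0.84, adjusted p 9.31e-06) and Adh7 at 56.1 ± 3.12 against 37.1 ± 0.501 (0.60, 4.75e-07). Crabp1, the gene of the other cellular retinoic acid binding protein, fell from 258 CPM ± 28.9 to 177 ± 15.5 (log2 -0.55, adjusted p 7.25e-06), opposite to Crabp2. Stra6 fell again, from 2.1, 1.85 and 2.23 CPM to 0.897, 0.23 and 0.885 (log2 -1.57 ± 0.29, adjusted p 0.000224). The targets had 3 higher and 5 lower, among the latter Tgm2 (-0.50, adjusted p 2.08e-07), the orphan receptor gene Gprc5a (-0.57, 3.87e-07) and Bhlhe40 (-0.58, 7.52e-05). Summed fibroblast markers were lower and the mitochondrial share higher in all 3 isoliquiritigenin libraries (2.8 to 3.77% against 1.55 to 2.71%), and their part was not tested. All 3 isoliquiritigenin libraries belong to the second numbering series, as do replicates 2 and 3 of the enzalutamide co-culture, whereas its replicate 1 belongs to the first. Crabp2 lost its call without replicate 1 of the enzalutamide co-culture (adjusted p 0.148) or replicate 2 of the isoliquiritigenin group (0.101), with the numbering series as a covariate (0.145) and in the second series only (0.163).

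**Figure D3:**
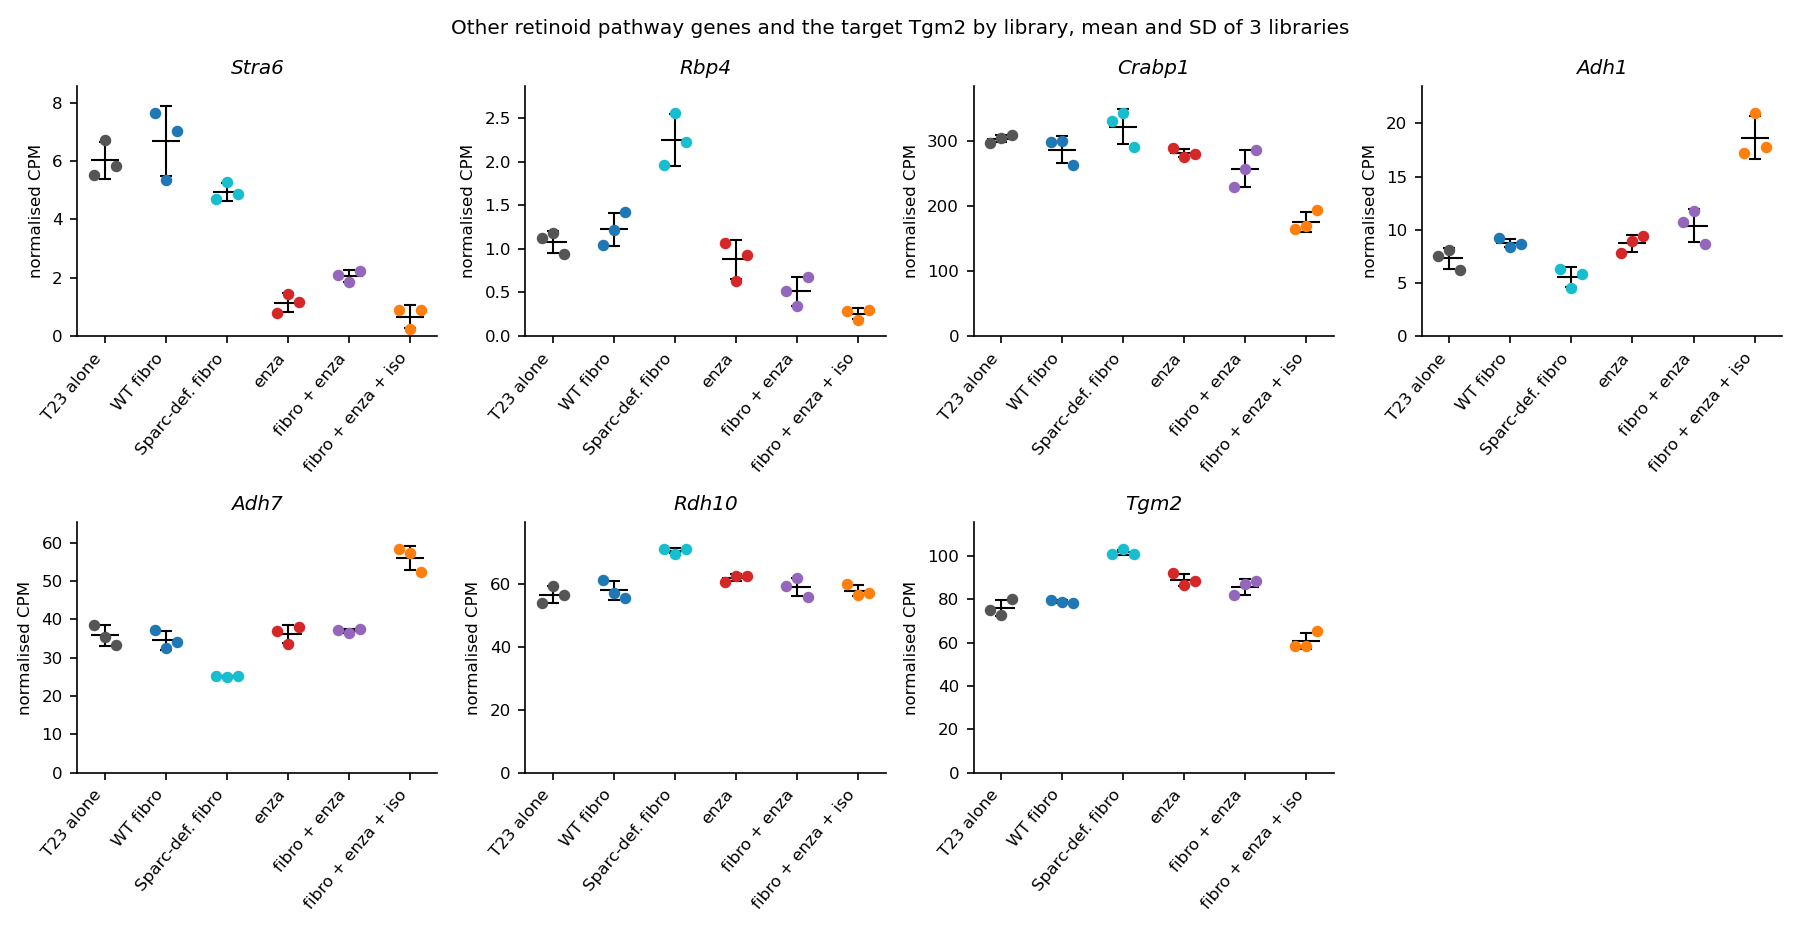
Normalised CPM (y axis, from 0) of 6 other retinoid pathway genes and of the target Tgm2 in each library (points) with the mean and SD of 3 libraries (bars), by group (x axis, abbreviations as in the plot of the tested retinoid genes). Stra6 lies between 0.23 and 2.23 CPM in the 9 libraries with enzalutamide and between 4.7 and 7.66 in the 9 without it, and Adh1 and Adh7 are highest with isoliquiritigenin.

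Across comparisons the 9 genes did not form a single pattern. Rarb, Dhrs3 and Cyp26b1 shared their lowest level in T23 cells alone, where the mean of Rarg was also lowest, within a 1.23-fold span. The known target Crabp2 had its lowest mean with wild-type fibroblasts. How many of all tested genes are lowest in T23 cells alone was not counted. Aldh1a1 followed another course, highest with Sparc-deficient fibroblasts and low in all enzalutamide groups. Likeness was measured as the root mean square difference between centred log2 profiles over the 18 libraries, all on one scaling. Among all tested genes the nearest to Rarb was Dhrs3, at 0.35, then the heparan sulfate sulfotransferase gene Hs6st1 (0.37) and Cyp26b1 (0.37), where the median gene was at 0.60. This order depended on a setting and on single libraries. With a prior count of 5 in place of 2 in the log2 values, Dhrs3 was at rank 3 and Cyp26b1 at rank 2. Dhrs3 was also at rank 3 without replicate 2 of the enzalutamide co-culture. It was at rank 26 without replicate 2 of T23 cells alone, and at rank 1 without any other library. Cyp26b1 moved between ranks 2 and 9 when a library was left out.

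Dhrs3 itself had Fyb (0.32), the sodium channel gene Scn7a (0.32) and Gm47140 (0.33) as nearest genes, with the median gene at 0.59. For Cyp26b1 they were the smooth muscle actin gene Acta2 (0.17), Ifi205 (0.18) and Mpeg1 (0.19; median 0.38), and for Aldh1a1 the water channel gene Aqp1 (0.19), Tmem45a (0.21) and the microfibril gene Mfap5 (0.21; median 0.67). Crabp2 was nearest to the forkhead gene Foxf2 (0.14), Chst12 (0.15) and Glis1 (0.15; median 0.33). The steadier Rara (Bcl9l, Efemp2 and Pink1, each at 0.07; median 0.21) and Rarg (Glb1 at 0.06, Wbp1l and Aes at 0.07; median 0.20) lay near many genes that vary little. Ifi205 belongs to a family of near-identical copies, so its count is uncertain.

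**Figure D4:**
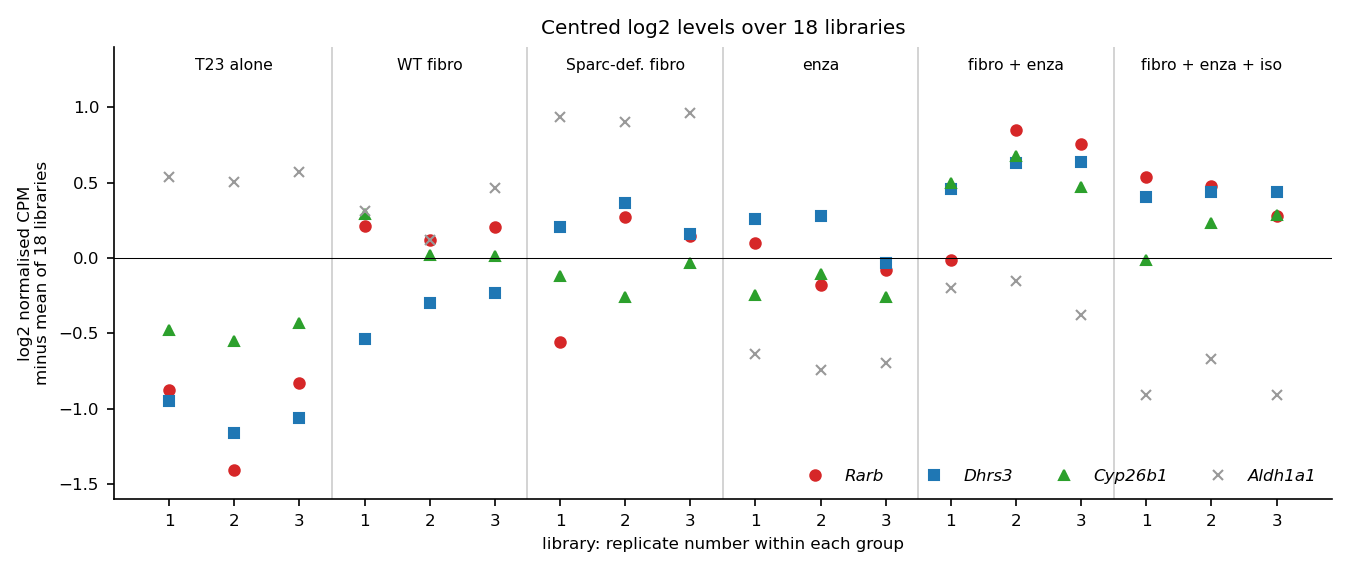
Log2 normalised CPM minus its mean over the 18 libraries (y axis) of Rarb, Dhrs3, Cyp26b1 and Aldh1a1 in each library (x axis, replicate number within each group, abbreviations as in the plot of levels). Rarb, Dhrs3 and Cyp26b1 lie below 0 in all 3 libraries of T23 cells alone, whereas Aldh1a1 lies above 0 in the 9 libraries without enzalutamide and below 0 in the 9 with it.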

How the data were processed

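Poly(A) RNA of 18 libraries was sequenced with a dUTP-stranded kit, per the labels' protocols. The values the authors deposited are raw counts, by gene and by library, without normalisation. Per the submitters' processing notes, the authors' tools included STAR 2.6.1d and featureCounts 2.0 on build GRCm38, with cutadapt 2.9, bcl2fastq 2.20.0.422 and FastQC 0.11.9 also named, and DESeq2. The annotation release, strand setting and handling of reads with several matches are not given in the sources used here. Symbols (55141 of 55487 genes) and coordinates are from GENCODE M21, and promoter sequences from RefSeq (GRCm38.p6).

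Genes were filtered with filterByExpr (minimum count 10), leaving 13600. All 18 libraries were fitted in edgeR 4.0.16 (R 4.3.3, limma 3.58.1; TMM scaling, 1 mean per group, 12 residual degrees of freedom), and contrasts were tested with two-sided quasi-likelihood F tests. A gene is called at a Benjamini-Hochberg adjusted p under 0.05 over all 13600 genes. SE was obtained by dividing the absolute log2 fold change by the root of F. Normalised CPM are given as mean ± SD over 3 libraries, and likeness of profiles used a prior count of 2. The script was tested on simulated data. Intervals of counting error are not printed, and the floor of 3 counts covers counting error alone, as there are no molecular identifiers.

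Text names all 9 genes, with the 7 tested ones in every comparison. It also names up to 4 called genes with the smallest p of each of 2 retinoid lists per comparison, and the 3 genes nearest in profile. A few genes the rule picks are not reported here. Other genes named without a call (Rxra, Rxrb, Stra6, Cyp26a1, Cyp26c1, Top2b) were chosen after their values were seen. The 9 genes and the lists were chosen with earlier results of these data known. Alternatives were DESeq2 (1.42.0) size factors and Wald test, no filter, a replicate block, the numbering series as a covariate, fits of only the groups compared, without the ribosomal RNA gene or the library rich in it, and without each library. Fits within 1 numbering series, DESeq2 counts for the lists and alternatives for list genes were added after seeing the data.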

Additional observations from a re-analysis of the deposited data

Results flagged for a closer look

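The effect of co-culture differed between Sparc-deficient and wild-type fibroblasts for 3 genes, by the test of the difference itself. For Dhrs3 both co-cultures were higher than T23 cells alone and the Sparc-deficient one by log2 0.59 more (edgeR adjusted p 0.000185). For Aldh1a1 the difference was log2 0.64 (adjusted p 3.87e-05) and for Rara log2 0.25 (adjusted p 0.0349). For these last 2 genes every wild-type library lay below T23 cells alone, and every Sparc-deficient library above them. Of their changes against T23 cells alone, edgeR called only the rise of Aldh1a1 in the Sparc-deficient co-culture (log2 0.40, adjusted p 0.0048). The wild-type shifts of Aldh1a1 (-0.24, 0.342) and Rara (-0.14, 0.572) and the Sparc-deficient shift of Rara (0.11, 0.413) were not called. Opposite effects of the co-cultures are therefore not shown, and the share of all genes in such an order is not given. The Rara difference lost its call in 5 of 15 alternatives. Aldh1a1 was lower in every wild-type library than in T23 cells alone, and higher in every enzalutamide co-culture library than under enzalutamide alone. The difference of these shifts, log2 0.69, did not pass its test (edgeR adjusted p 0.161).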

How the results depend on the processing

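Of the 23 calls of the 9 genes, 12 were kept in every alternative run and 11 were lost in at least 1, and no called value reversed. The values lost stand beside each result. The number of genes called, 3 with wild-type fibroblasts, was 1 to 2 when 1 library was left out, and 2 to 3 of 3 between both co-cultures. It was 3 to 4 of 5 between the Sparc-deficient co-culture and T23 cells alone, 2 to 3 of 3 for enzalutamide alone, 3 of 3 for enzalutamide in co-culture, 1 to 2 of 3 for fibroblasts under enzalutamide and 2 to 4 of 3 for isoliquiritigenin. With the numbering series as a covariate, and with the first series only, 1 rather than 3 was called for enzalutamide in co-culture and 1 rather than 3 for fibroblasts under enzalutamide, and in both the enzalutamide co-culture then rests on 1 library. For the latter 1 was also called with only the groups compared in the fit. In the interaction 1 rather than 0 was called without a filter (Aldh1a1), and 0 without any 1 library.

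The replicate block changed the call of 2 of the 23, Rarb with wild-type fibroblasts (adjusted p 0.0506, leaving 2 genes called) and Aldh1a1 for fibroblasts under enzalutamide (0.0554, leaving 2), and left counts of 3, 5, 3, 3, 3 and 0 in the other comparisons. No strong pairing of libraries by replicate number was seen: in 0 of 15 pairs of groups were all same-number correlations over 0.1 (range -0.144 to 0.098). Correlations between libraries of different numbers were not computed for reference, so weak pairing cannot be judged.

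The background moved more. Over all alternatives the number of all genes called ran from 11 to 336 (70 in the reported fit) with wild-type fibroblasts, 857 to 2085 (1566) between both co-cultures, 743 to 2188 (1325) between the Sparc-deficient co-culture and T23 cells alone, 740 to 1820 (1636) with enzalutamide, 168 to 1423 (977) with enzalutamide in co-culture, 6 to 541 (283) for fibroblasts under enzalutamide, 2522 to 4225 (3599) with isoliquiritigenin and 0 to 99 (3) in the interaction. Of the 35 calls of other retinoid genes that the naming rule picks 23 were kept in every alternative. Where a cause of a lost call is not plain from fewer libraries, the cause was not tested. Depth limits Rarb, with 12 to 68 counts per library, and Aldh1a3 most.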
